A study of Mus musculus with 18 samples.

Results

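The 10 genes described here encode hepatic acute phase proteins and metallothioneins. They were taken by symbol from the deposited table, Saa1, Saa2, Saa3, Saa4, Hp, Orm1, Orm2, Lcn2, Mt1 and Mt2, and all 10 were found among its 28442 genes. Bulk RNA-seq was available for 6 livers and 12 advanced tumors of Alb-R26Met mice. In these male F1 C57:129Sv mice, Cre under the Alb promoter removes a stop cassette in front of a mouse-human chimeric Met transgene at Rosa26, so that MET levels are raised in the liver and hepatocellular carcinoma forms with age. The livers came from 6 mice of the same genotype that had not developed tumors, aged 52 to 71 weeks, and thus carry the transgene too. The tumors came from 11 mice aged 49 to 72 weeks, tumors 11 and 12 being from 1 mouse. A tag is part of each sample name. It is E19 for 2 of the livers and 7 of the tumors, and E20 for the remaining 4 and 5, and its meaning is not given in the sources used here.

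During infection, injury or cancer, cytokines of the interleukin 6 and interleukin 1 families act on hepatocytes, which then change the mix of proteins they secrete. Serum amyloid A proteins are small apolipoproteins of high density lipoprotein, haptoglobin binds free hemoglobin, orosomucoids are acid glycoproteins that carry drugs and lipids, and lipocalin 2 withholds iron from bacteria by binding their siderophores. Metallothioneins are small cysteine-rich proteins that bind zinc and copper inside the cell. Their genes respond to zinc through the factor MTF1 and also to glucocorticoids and interleukin 6.

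In GRCm38.p6, the 4 Saa genes lie within 42.3 kb at chr7:46711998-46754313. Mt2 and Mt1 are neighbors within 7.71 kb at chr8:94172618-94180327, and Hp is elsewhere on the same chromosome, at chr8:109575128-109579172. Orm1 and Orm2 flank Orm3 within 21.3 kb at chr4:63344556-63365877, and Lcn2 is at chr2:32384637-32387739. Promoters of 300 bases (250 before a transcription start and 50 from it on) were matched for 8 of the 10 genes, all but Hp and Orm1, in RefSeq sequences of GRCm38.p6. Those of Mt1, Mt2, Saa1 and Saa2 are shown because these neighbors moved together between tumors, as described below. They are written in the direction of the gene, with matches to the metal response element core in capitals for Mt1 (chr8:94178839-94179138, plus strand) and Mt2 (chr8:94172368-94172667, plus strand). In Saa1 (chr7:46742931-46743230, minus strand) and Saa2 (chr7:46751583-46751882, plus strand), the capitals mark a match to the C/EBP motif.
Mt1: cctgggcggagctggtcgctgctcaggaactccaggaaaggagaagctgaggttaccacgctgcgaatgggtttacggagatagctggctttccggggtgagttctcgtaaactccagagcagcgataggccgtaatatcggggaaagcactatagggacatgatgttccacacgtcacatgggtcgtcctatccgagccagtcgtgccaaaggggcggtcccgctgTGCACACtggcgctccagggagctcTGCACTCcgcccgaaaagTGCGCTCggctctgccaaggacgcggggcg
Mt2: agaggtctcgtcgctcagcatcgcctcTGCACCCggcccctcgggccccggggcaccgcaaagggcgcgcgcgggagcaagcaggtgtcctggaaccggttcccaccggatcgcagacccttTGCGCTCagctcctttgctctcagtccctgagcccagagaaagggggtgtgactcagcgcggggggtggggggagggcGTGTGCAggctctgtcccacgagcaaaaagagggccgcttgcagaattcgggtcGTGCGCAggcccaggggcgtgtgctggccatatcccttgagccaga
Saa1: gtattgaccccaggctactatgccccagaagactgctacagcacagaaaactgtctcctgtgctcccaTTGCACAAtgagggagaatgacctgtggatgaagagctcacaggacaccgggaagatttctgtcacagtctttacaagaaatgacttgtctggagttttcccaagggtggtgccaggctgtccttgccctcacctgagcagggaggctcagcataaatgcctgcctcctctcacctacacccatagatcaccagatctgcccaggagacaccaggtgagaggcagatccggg
Saa2: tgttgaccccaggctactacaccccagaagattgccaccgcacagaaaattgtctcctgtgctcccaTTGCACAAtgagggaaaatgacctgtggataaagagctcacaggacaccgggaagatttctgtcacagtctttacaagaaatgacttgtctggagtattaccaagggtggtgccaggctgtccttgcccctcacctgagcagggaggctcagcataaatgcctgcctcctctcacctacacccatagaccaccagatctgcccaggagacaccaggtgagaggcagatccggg
The core of the metal response element was searched as TGCACNC or TGCGCNC on both strands and was found 3 times in the Mt1 window and 4 times in that of Mt2. At least 1 match was present in 25.7% of the 32851 promoters of the same length, and at least 3 in 1.97%. No match was present in the other 6 promoters. The C/EBP motif, TTNNGCAA on both strands, was matched in 7 of the 8 promoters, all but that of Mt1, against 10.8% of all promoters. In Saa1 and Saa2 the same 8 bases, TTGCACAA, began 182 and 183 bases before the start. In Mt2 a C/EBP match stood apart from the metal response element cores, and it is not in capitals. No match to TTCNNNGAA (STAT3), CTGGGAA (interleukin 6 response element) or GGANTTTCC (NF-kB) was present on either strand in these 8 windows, and 8.30%, 11.1% and 1.25% of all promoters held 1. The start used lies inside the gene's RefSeq record by 206 bases for Mt1, 201 for Saa1 and 3939 for Saa3, so that other starts exist for these genes and the windows searched may not be those of their main start.

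The deposited values are whole numbers that the study calls raw counts. They were read here as rounded TPM, the share that a gene has of all transcripts after correction for length, because they equal the study's own TPM after rounding for nearly all genes where both are given and because their totals are much alike. They summed to between 835144 and 907513 per sample. Siglece, which encodes a sialic acid-binding lectin of myeloid cells, took up 17.9% to 29.5% of a liver's total and 21.5% to 82.9% of a tumor's, the highest share being in tumor 2. Values were therefore scaled between samples, and are given below as scaled TPM. In tumor 2 a deposited value of 1 became 5.24, so low values there are coarse. The summed level of 8 macrophage and monocyte markers in tumor 2 was 31.5 scaled TPM, the lowest of the tumors. What the Siglece values stand for was not tested. Met, the transgene's gene, was 15.96 to 38.3 in livers and 72.9 to 154 in tumors, and every tumor was above every liver. All of the 6 hepatocyte markers were detected in every sample. Of them, 1 rose in tumors (Apoa1, log2 fold change 0.94, adjusted p = 0.00915, limma) and 1 fell (Tat, -1.59, adjusted p = 0.00540), against 10.3% and 8.69% of all genes tested. Cps1 did not pass the test (-1.85, adjusted p = 0.110), although 11 of 12 tumors were below every liver, with 939 to 1753 scaled TPM in livers and 2.65 to 950.5 in tumors. The summed level of the 6, most of it from Alb, was 28778 to 37093 in livers and 28132 to 62477 in tumors. Because these are bulk samples, fewer cells of a type and less RNA per cell cannot be told apart.

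Lcn2 rose and Saa4 fell in tumors, whereas the other 8 genes did not pass the test. Lcn2 was 10.96-fold higher and Saa4 was 2.51-fold lower on the log2(scaled TPM + 1) scale. All 10 genes passed the filter on low values, and 2 of 10 were called at an adjusted p under 0.05 by limma, against 19% of the 11452 genes tested. The share higher was 1 of 10 against 10.3%, and the share lower 1 of 10 against 8.69%. The number of calls among these genes was thus close to that among all genes. Their median log2 fold change was -0.35, and that of all genes tested was -0.04. An unadjusted p under 0.05 was reached by 5 of them, Saa3, Mt1 and Mt2 besides Saa4 and Lcn2. With liver 1 and tumor 2 left out, a choice made after seeing the data, 5 of 10 were called, namely Lcn2, Mt1 and Mt2 as higher and Saa3 and Saa4 as lower, against 30.7% of 12004 genes (15.6% higher and 15% lower). The 10 genes together made up 0.595% ± 0.125 (SD, n = 6) of all transcripts other than Siglece in livers and 0.947% ± 0.326 (SD, n = 12) in tumors.

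**Figure D1:**
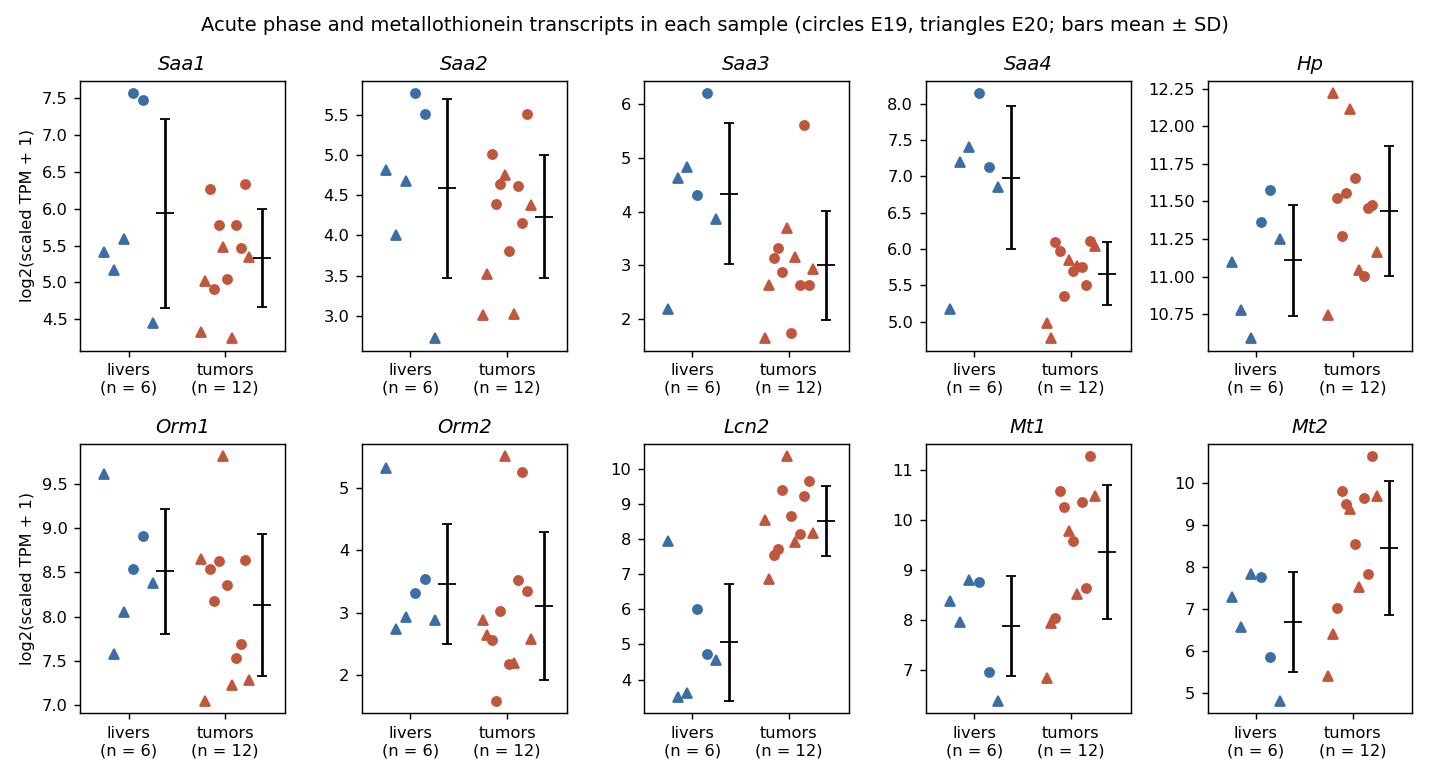
Scaled TPM of the 10 genes on the log2(value + 1) scale in 6 livers (blue) and 12 tumors (red), 1 point per sample, with circles for the tag E19 and triangles for E20, and with the mean ± SD as black bars. For Lcn2, 5 of 6 livers sit below every tumor and liver 1 sits among the tumors; for Saa4, 5 of 6 livers sit above every tumor and liver 1 sits among them. Each vertical axis has its own range.

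**Figure D2:**
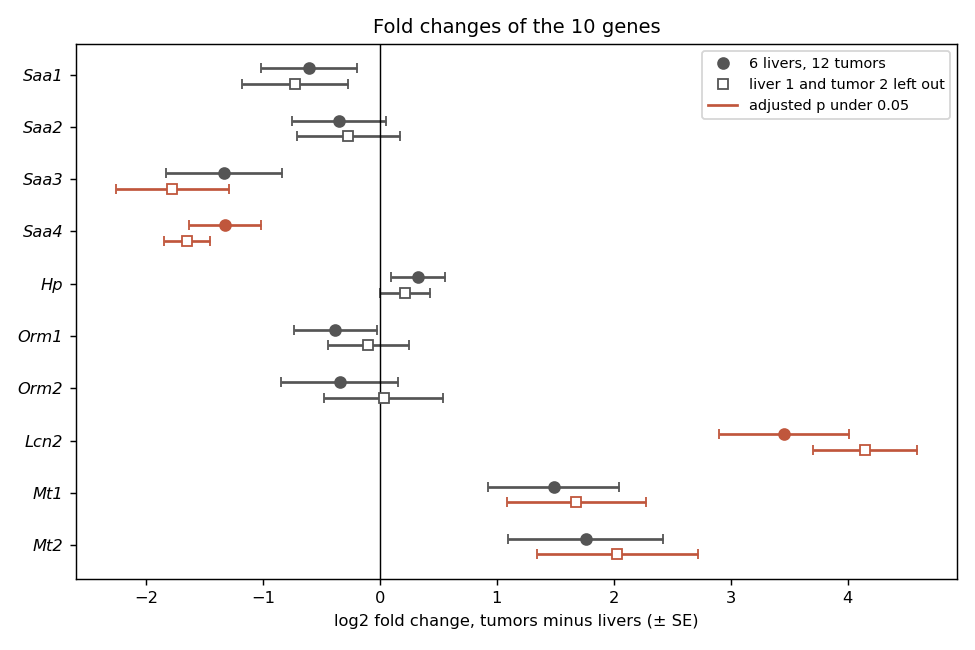
Log2 fold change of each gene, tumors minus livers, with its standard error, from all samples (filled circles) and with liver 1 and tumor 2 left out (open squares), in red where the adjusted p was under 0.05. Lcn2 stands furthest right and Saa4 and Saa3 furthest left in both fits, whereas Mt1, Mt2 and Saa3 are red in the fit without these 2 samples and not in the other.

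Lcn2, the siderophore-binding lipocalin, was at a low level in most livers and high in the tumors. The livers had 10.4 to 243.5 scaled TPM with a median of 23.9, and the tumors had 115 to 1315 with a median of 329. In single livers the values were 243.5, 10.4, 11.3, 63.3, 25.5 and 22.4, in the order of liver 1 to liver 6. Liver 1 was thus far above the next liver, liver 4, and it alone overlapped the tumors: 5 livers were below every tumor, and 8 tumors were above every liver. The log2 fold change was 3.45 with a standard error of 0.56 (adjusted p = 0.000164, limma). Without liver 1 it was 4.04 with an adjusted p of 5.12e-06. The highest tumor, tumor 6, had 1315, followed by tumor 11 with 799.6, tumor 5 with 674 and tumor 10 with 593, and the lowest, tumor 2, had 115. By mean level, Lcn2 was in place 1049 of 28442 genes in livers and in place 117 in tumors.

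Lcn2 is also a granule protein of neutrophils, so their markers were examined. Of 11 neutrophil markers, Elane, Mpo, Cxcr2 and Mmp8 were listed at 0 in every sample, and S100a8 alone passed the filter, with a log2 fold change of -0.16 (adjusted p = 0.793, limma). The summed level of the 11 markers was 0.94 to 8.59 in livers and 0 to 4.42 in tumors, the highest value being that of liver 1. Across the 12 tumors, Lcn2 and the neutrophil score (the mean log2 level of the markers) had a Spearman's rho of 0.25 (permutation p = 0.425, two-sided; adjusted p = 0.523 over 16 relations) and a Pearson's r of 0.37 (permutation p = 0.234). S100a8 was above 0 in 5 livers and 8 tumors, Csf3r in 3 livers and 7 tumors, and S100a9 in 1 liver and 3 tumors. A listed 0 stands for any TPM that rounds to 0, and the part that neutrophils may have in the tumor levels of Lcn2 was not tested. The receptors of lipocalin 2, Slc22a17 and Lrp2, were at most 1.66 and 0.925 scaled TPM in any sample and were too low to be tested.

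Saa4, which encodes the constitutive serum amyloid A of the liver, fell in tumors. Livers had 35.1 to 282 scaled TPM with a median of 142, and tumors had 26.2 to 67.9 with a median of 53.4. All 12 tumors were below the liver median, and 5 of 6 livers were above every tumor. Liver 1, with 35.1, was the exception. The log2 fold change was -1.33 with a standard error of 0.31 (adjusted p = 0.00411, limma), and it was -1.68 without liver 1 (adjusted p = 3.03e-05). Tumors varied 2.59 times between the lowest and the highest, the smallest range of the 10 genes.

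Saa1 and Saa2, the inducible serum amyloid A genes of hepatocytes, did not differ between the groups beyond the spread of samples. For Saa1, livers had 20.8 to 189 scaled TPM (median 44.4) and tumors 17.9 to 79.7 (median 41.5). The log2 fold change was -0.61 with a standard error of 0.41 (adjusted p = 0.341, limma). For Saa2, livers had 5.59 to 53.4 (median 25.9) and tumors 7.07 to 44.4 (median 19.9), and the log2 fold change was -0.35 with a standard error of 0.40 (adjusted p = 0.613). Livers 4 and 5, the only livers with the tag E19, held the highest values of both genes, 189 and 177 for Saa1 and 53.4 and 44.7 for Saa2. The 4 E20 livers had 20.8 to 47.2 for Saa1. Among tumors, too, the median of Saa1 was 53.96 with E19 and 31.5 with E20, with overlapping ranges.

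Within E19 samples, Saa1 had a log2 fold change of -1.88 (adjusted p = 0.00836, limma), and within E20 samples it was -0.27 (adjusted p = 0.724). The difference between these effects did not pass the test over all genes. The interaction of tag and group had an unadjusted p of 0.00623 and an adjusted p of 0.952 for Saa1. It was called for 0 of 11452 genes (0%), and 331 genes had an unadjusted p under 0.05, of which 1 was one of the 10 genes here. With the tag as a covariate, Saa1 was lower in tumors by a log2 fold change of -0.93 (adjusted p = 0.0353), and Saa3 was called lower as well (-1.495, adjusted p = 0.0386). Saa1 was higher with E19 than with E20 in livers and, by median, in tumors, but the tag by itself was not tested. The E19 livers came from mice aged 52 and 55 weeks, and the E20 livers from mice aged 55 to 71 weeks. With only 2 E19 livers, neither the tag's source nor its part in these values was tested. Lcn2 had a similar value within either tag, 3.24 in E19 samples (adjusted p = 0.00583) and 3.46 in E20 samples (adjusted p = 0.0604). For Saa4 these values were -1.86 (adjusted p = 0.00262) and -1.18 (adjusted p = 0.202).

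Saa3, a serum amyloid A that macrophages and fat cells as well as hepatocytes make in mice, had 3.58 to 72.3 scaled TPM in livers (median 21.2) and 2.12 to 47.7 in tumors (median 6.50). Of the 12 tumors, 11 were below the liver median, and tumor 10 with 47.7 was the exception. The log2 fold change was -1.33, as large as that of Saa4, but with a standard error of 0.50 (adjusted p = 0.0671, limma). It was called without liver 1 (-1.75, adjusted p = 0.00981) or without tumor 10 (-1.57, adjusted p = 0.0103). Without liver 5 it was smaller (-0.96, adjusted p = 0.194), and in E20 samples alone it was -1.06 (adjusted p = 0.347). The direction was the same in all 33 alternatives, and Saa3 was called in 7 of them. Liver 5, with the highest Saa3 of the livers, and tumor 10, with the highest of the tumors, also had the highest summed level of the 8 macrophage and monocyte markers in their groups, 132 and 129.9. That sum ranged from 37.7 in livers and from 31.5 in tumors. Of the markers tested 1 of 5, Cd14, was called, against 19% of all genes tested. Across tumors, Saa3 and the macrophage score had a rho of 0.46 (permutation p = 0.135, adjusted p = 0.359) and an r of 0.62 (permutation p = 0.0315, adjusted p = 0.138). Without the 2 tumors with the most extreme Saa3, r was 0.19, so the relation rests on them. Of 5 adipocyte markers, 4 were listed at 0 in all samples, among them Adipoq and Plin1.

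Hp was the most abundant of the 10 genes in both groups, in place 31 of 28442 by mean level in livers and 24 in tumors. Livers had 1539 to 3049 scaled TPM (median 2311) and tumors had 1712 to 4767 (median 2830.4). The ranges overlapped, with 3 tumors above every liver. The log2 fold change was 0.33 with a standard error of 0.23 (adjusted p = 0.369, limma). Its levels were even, with the highest liver 1.98 times the lowest. Cd163, the macrophage receptor that takes up haptoglobin with hemoglobin, fell in tumors (log2 fold change -0.96, adjusted p = 0.0252). It was 0.716 to 2.83 scaled TPM in livers and at most 2.14 in tumors, 8 of which were listed at 0. These levels are near the lowest values that the rounded table can hold. Lrp1, which takes up hemopexin with heme, fell as well (-0.96, adjusted p = 0.0106).

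Orm1 had 189 to 779 scaled TPM in livers (median 352) and 131 to 898 in tumors (median 307), and Orm2 had 5.65 to 38.7 (median 7.75) and 1.996 to 44.4 (median 5.80). Neither passed the test, with log2 fold changes of -0.38 (standard error 0.36, adjusted p = 0.523, limma) and -0.35 (standard error 0.50, adjusted p = 0.702). The highest liver was liver 1 for both, and the highest tumor was tumor 6 for both. Tumor 10 had 37.1 of Orm2 beside an ordinary 206 of Orm1. Orm3, the third orosomucoid gene and not one of the 10, differed from them: it was 4.72 to 43.0 in livers and 0 to 2.86 in tumors, with every tumor below every liver (-2.62, standard error 0.37, adjusted p = 3.42e-05). For comparison, 0.891% of all genes tested had every tumor below every liver. No test of the difference between Orm3 and the other orosomucoids was made.

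The metallothioneins Mt1 and Mt2 were higher in most tumors than in any liver, but the test did not pass. Tumors below the liver median numbered 3 for Mt1 and 2 for Mt2. For Mt1, livers had 82.3 to 448 scaled TPM (median 289.6) and tumors 113 to 2497 (median 823). For Mt2, livers had 27.2 to 227.5 (median 125) and tumors 41.7 to 1594 (median 516). Tumors above every liver numbered 7 for Mt1 and 8 for Mt2, and for neither gene were all 12 above every liver, which was the case for 2.32% of all genes tested. The values of Mt1 in the tumors were 113, 246, 262, 1540.1, 1237, 884, 763, 367, 1318, 397, 2497 and 1429, in the order of tumor 1 to tumor 12. Tumors 1, 2 and 3 were thus below the liver median, and the highest, tumor 11, was 22.1 times the lowest, tumor 1. The log2 fold changes were 1.49 (standard error 0.56, adjusted p = 0.0695, limma) and 1.76 (standard error 0.66, adjusted p = 0.0686), with unadjusted p of 0.0148 and 0.0145. Without tumor 1 they were called, at 1.73 (adjusted p = 0.0195) and 2.05 (adjusted p = 0.0184), and without tumor 2 as well, at 1.604 (adjusted p = 0.0397) and 1.93 (adjusted p = 0.0324). These were the only 2 of the 18 fits with 1 sample left out that called them. Other fits were weaker. Without liver 6 the values were 1.19 (adjusted p = 0.195) and 1.38 (adjusted p = 0.197). In E20 samples alone they were 0.83 (adjusted p = 0.605) and 1.05 (adjusted p = 0.5997). With the tag as covariate the adjusted p was 0.112 for each. Both genes kept their direction in all 33 alternatives and were called in 4 of them. By mean level Mt1 moved from place 226 in livers to place 62 in tumors, and Mt2 from place 510 to place 100.

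Of 12 tested genes of zinc and copper handling, 1 was higher and 1 was lower, a share near the 19% called among all genes, with a median log2 fold change of -0.01. The one higher was Slc39a4, an importer of zinc, at 16.05 to 30.4 scaled TPM in livers and 37.4 to 100.5 in tumors (1.498, adjusted p = 2.41e-05, every tumor above every liver). The one lower was Ccs, the copper chaperone of superoxide dismutase (-0.82, adjusted p = 0.00804). Mtf1, the zinc-sensing factor that acts on metallothionein genes, had a log2 fold change of 0.08 (adjusted p = 0.749), and Slc30a1, a zinc exporter and another target of that factor, had -0.21 (adjusted p = 0.518). Between tumors, however, Slc30a1 varied with Mt1, with a rho of 0.74 (permutation p = 0.00804, adjusted p = 0.0429 over 16 relations) and an r of 0.62 (permutation p = 0.0345, adjusted p = 0.138). Without the 2 tumors with the most extreme Mt1, r was 0.40, so the relation rests in part on them, and within the 7 E19 tumors rho was 0.57 (exact permutation p = 0.2). It passed the threshold in only 4 of the 12 sets with 1 tumor left out, with a rho of 0.66 to 0.89 and an adjusted p of up to 0.168, and did not pass without scaling (rho 0.48, adjusted p = 0.348). Mt3 and Mt4, metallothioneins of brain and squamous epithelia, were listed at 0 in every liver and were above 0 in 1 tumor each.

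Steroid hormones are another known input to metallothioneins and orosomucoids. Of 10 genes for the glucocorticoid receptor and its targets, none was called higher and 2 were called lower, Tat (-1.59, adjusted p = 0.00540) and Tsc22d3 (-0.82, adjusted p = 0.0350). Their median was -0.49. With liver 1 and tumor 2 left out, 6 of 10 were called lower, in a fit that called 15% of all genes lower against 8.69% with all samples. The receptor gene Nr3c1 itself had -0.21 (adjusted p = 0.331).

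Which of the 10 genes varied together was asked across the 12 tumors, which come from 11 mice. Of 16 relations chosen for this purpose, 3 passed the threshold. Mt1 and Mt2 were in the same order in all 12 tumors, with a rho of 1 and an r of 0.99 (permutation p = 1e-05 for each, the smallest that 100000 permutations can give; adjusted p = 0.00016). Without the 2 tumors with the most extreme Mt1, r stayed at 0.99, and within the 7 E19 tumors rho was 1 (exact permutation p = 0.000397). Saa1 and Saa2 had a rho of 0.90 (permutation p = 0.00025, adjusted p = 0.002) and an r of 0.93 (permutation p = 2e-05, adjusted p = 0.00016). Without the 2 most extreme tumors r was 0.85, and within E19 tumors rho was 0.89 (exact permutation p = 0.0123). The third relation was that of Mt1 with Slc30a1 given above. The 5 E20 tumors were too few for a value of their own.

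Other genes of the acute phase did not vary together beyond what the test could show. Saa1 had a rho of 0.01 with Saa3, 0.43 with Saa4, 0.31 with Hp, 0.40 with Orm1, 0.41 with Lcn2 and 0.41 with Mt1, and none of these passed (permutation p from 0.170 to 0.991). Saa3 had a rho of 0.03 with Lcn2, Orm1 of 0.35 with Orm2, Hp of 0.13 with Orm1, and Mt1 of 0.36 with Lcn2. For Hp and Orm1, r was 0.24 with all tumors (permutation p = 0.445) and 0.92 without the 2 tumors with the most extreme Hp (permutation p = 0.00054). Tumor 2 was both the highest for Hp and the lowest for Orm1. Saa1 and Socs3, a target and brake of interleukin 6 signaling, had a rho of 0.41 (permutation p = 0.184). Among pairs that were not tested, Lcn2 with Orm1 (rho 0.67), Lcn2 with Orm2 (0.62) and Saa2 with Saa4 (0.66) had the highest values. Scaled values share each library's scaling factor, which bears on all such relations.

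**Figure D3:**
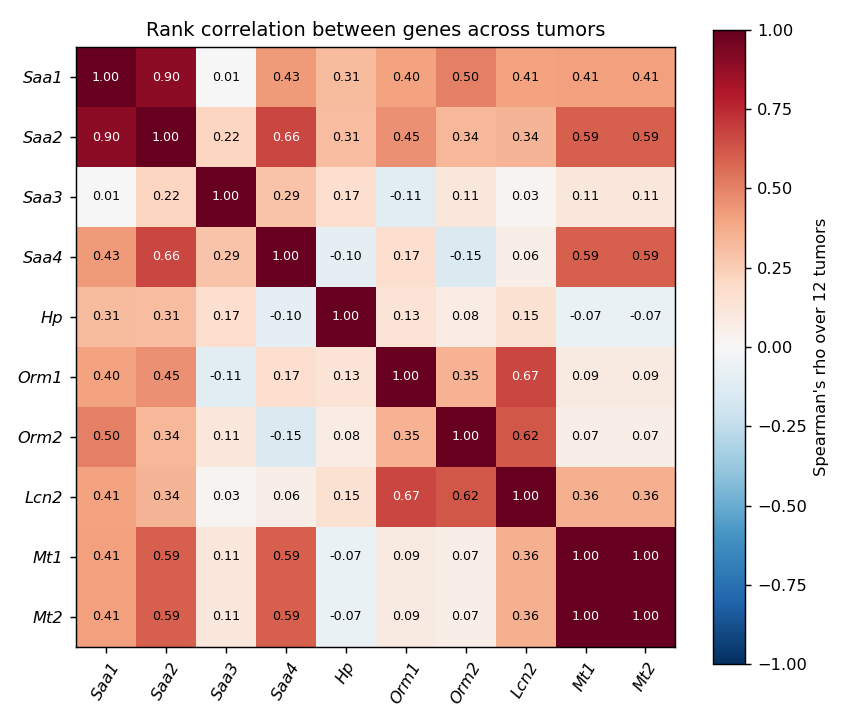
Spearman's rho between each pair of the 10 genes across the 12 tumors, from blue (-1) over white (0) to red (1), with the value printed in each cell. Mt1 with Mt2 (1) and Saa1 with Saa2 (0.90) are the darkest cells off the diagonal, and the row of Saa3 is pale.

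The tumors did not share 1 order over the 10 genes. Tumor 11 was among the 3 highest tumors for 7 genes, and highest for Saa1, Saa2, Saa4, Mt1 and Mt2. Tumor 6 was among the 3 highest for 6 genes, and highest for Orm1, Orm2 and Lcn2. Tumor 12, taken from the same mouse as tumor 11, had 1429 of Mt1 against 2497 and 39.7 of Saa1 against 79.7. Tumor 1 was among the 3 lowest for 7 genes, and lowest for Saa2, Saa3, Hp, Mt1 and Mt2. Livers differed as well: liver 1 was highest for Orm1, Orm2 and Lcn2 and lowest for Saa3 and Saa4. A test of whether the spread differed between tumors and livers, by limma on absolute deviations from the group median, called 0 of 11452 genes (0%), with 351 genes and 0 of the 10 at an unadjusted p under 0.05. A count of 0 does not show that spreads were alike, and without scaling the same test called 45 genes. On the log2 scale, the SD of Saa1 was 1.28 in livers and 0.67 in tumors, and that of Mt2 was 1.19 and 1.60.

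**Figure D4:**
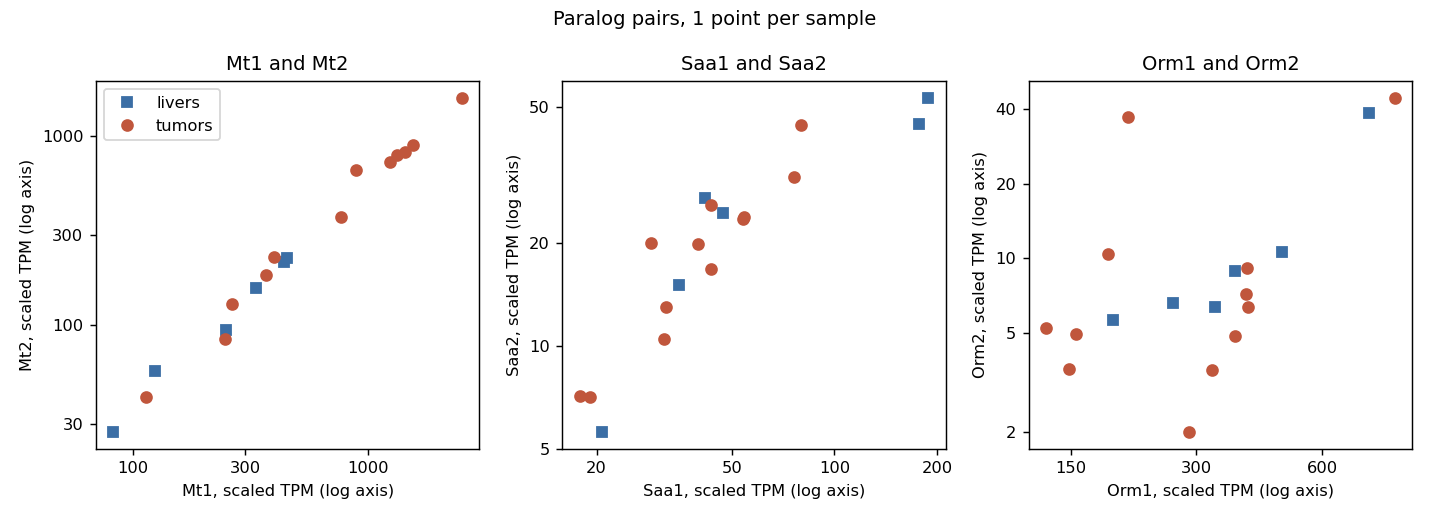
Scaled TPM of Mt2 against Mt1, Saa2 against Saa1 and Orm2 against Orm1 on log axes, 1 point per sample, livers as blue squares and tumors as red circles. Mt1 and Mt2 follow 1 line through livers and tumors, Saa1 and Saa2 scatter a little more, and Orm2 departs from Orm1 in several tumors.

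Balance within pairs of related genes was compared within each sample as a ratio of unscaled values, after adding a pseudocount of 1 to both. The pseudocount lowers ratios over small values, above all where Orm2 is near 1 TPM. The geometric mean ratio of Mt1 to Mt2 was 2.27 in livers and 1.88 in tumors, a log2 difference of -0.28 (exact permutation test over 18564 assignments, two-sided, p = 0.0748; adjusted p = 0.224 over 3 ratios). That of Saa1 to Saa2 was 2.58 and 2.12, also a log2 difference of -0.28 (exact permutation p = 0.153, adjusted p = 0.229). That of Orm1 to Orm2 was 33.6 and 31.6 (exact permutation p = 0.864). None passed the threshold with all samples. With liver 1 and tumor 2 left out, however, the log2 difference was -0.35 for Mt1 to Mt2 and -0.45 for Saa1 to Saa2, and both passed (exact permutation test, adjusted p = 0.0371 for each). The ratio varied most for Orm1 to Orm2 in tumors, where its SD was 1.19 on the log2 scale against 0.44 in livers, and least for Mt1 to Mt2 in livers (0.24). Reads of near-identical genes can be shared out wrongly. Saa1 and Saa2 share 155 distinct stretches of 31 bases, 26.8% of those in protein-coding Saa1 transcripts of GENCODE M21, and Orm1 and Orm2 share 205 (27.5%). Mt1 and Mt2 share none. Separate values of Saa1 and Saa2, or of Orm1 and Orm2, are less certain.

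Genes listed here as other positive acute phase proteins moved in either direction. Whether each of them responds in mice was not tested. Of 25 tested, 7 rose, 5 fell and 13 did not pass, with a median log2 fold change of 0.20. Those that rose were Il1rn, the interleukin 1 receptor antagonist (1.57 ± 0.76 (SD, n = 6) scaled TPM in livers and 20.1 ± 10.5 (SD, n = 12) in tumors; log2 fold change 2.96, adjusted p = 6.22e-08, limma), Cd14 (1.75), Cp, the copper-carrying ceruloplasmin (1.18), Apcs, the mouse serum amyloid P (1.12), Steap4 (1.002), Pzp (0.998) and Serpina3n (0.49). Those that fell were Hamp, which encodes the iron hormone hepcidin (2611 to 5188 scaled TPM in livers and 0.884 to 1470 in tumors; -4.59, adjusted p = 0.00189), Orm3, Serpina3k (-0.97), Lbp (-0.94) and Agt (-0.62). Crp had a log2 fold change of -0.48 (adjusted p = 0.0609), and the fibrinogen genes Fga, Fgb and Fgg had 0.23, 0.58 and 0.20 (adjusted p = 0.577, 0.135 and 0.593). With liver 1 and tumor 2 left out, 8 rose and 7 fell. For comparison, 10.3% of all genes tested rose and 8.69% fell with all samples, and 15.6% and 15% did without these 2.

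Negative acute phase proteins, whose output falls in the classical response, moved in either direction. Of 12 tested, 5 rose and 1 fell (against 10.3% and 8.69% of all genes tested), with a median of 0.56. With liver 1 and tumor 2 left out 5 rose and 2 fell (against 15.6% and 15%). Those that rose were Serpina6, which carries glucocorticoids in blood (1.57), Ahsg or fetuin A (1.20), Trf, the iron carrier transferrin (1.11, every tumor above every liver), Apoa1 (0.94) and Ambp (0.65). Rbp4 fell (-0.63, adjusted p = 0.0321). Igf1 had the most negative value of the list, -1.42, with 9 of 12 tumors below every liver, and just missed the threshold (adjusted p = 0.05004). Alb had 0.60 (adjusted p = 0.0735) and Ttr had -0.07 (adjusted p = 0.886). The other 3 that did not pass were F12 (0.24), Gc (0.53) and Fetub (-0.07).

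**Figure D5:**
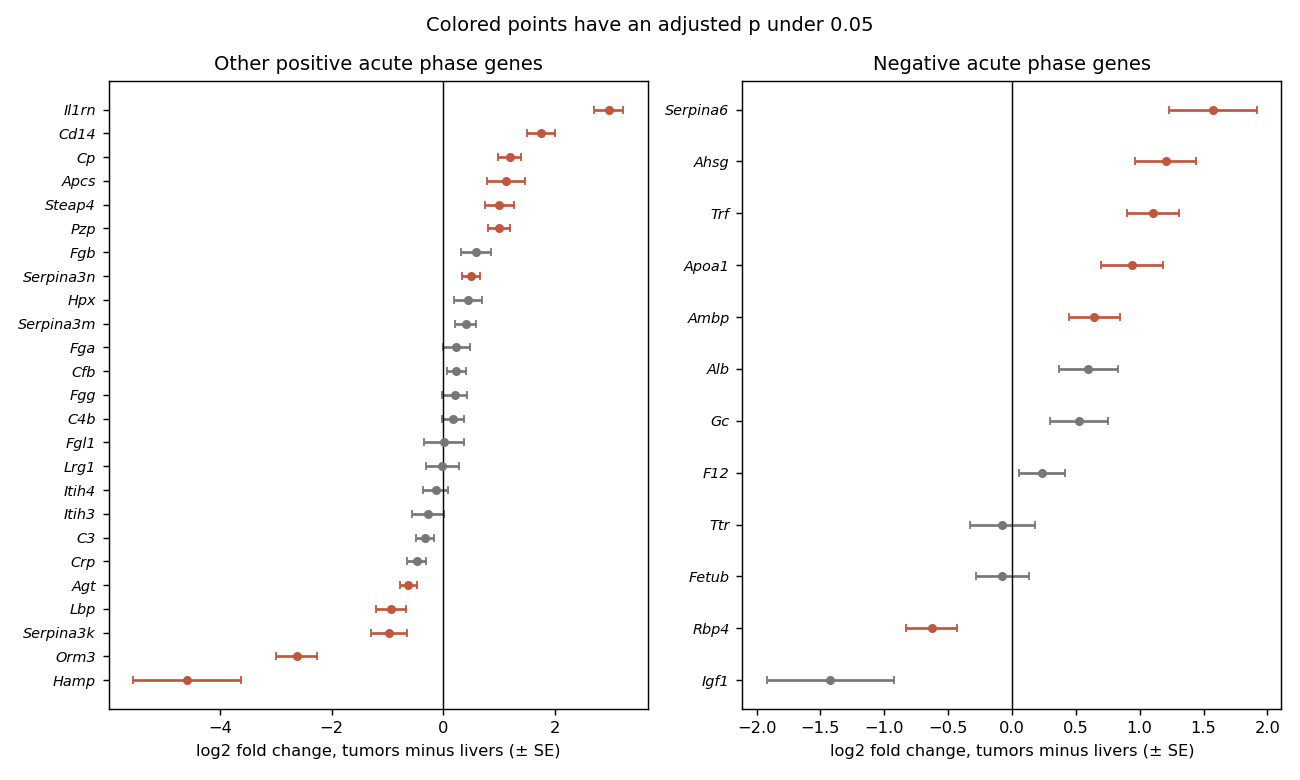
Log2 fold change with its standard error, tumors minus livers, of 25 other positive (left) and 12 negative (right) acute phase genes, ordered by value, in red where the adjusted p was under 0.05. Il1rn and Hamp stand at the ends of the left panel, and 5 of the 6 red genes in the right panel lie above 0.

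Cytokines that act on these genes were at 0 or low. Il6, Osm and Il22 were listed at 0 in all 18 samples, a value that stands for any TPM that rounds to 0, and Il1b was at most 1.77 scaled TPM. Lif, of the interleukin 6 family, was listed at 0 in all 6 livers and was above 0 in 7 of 12 tumors, with at most 1.85 scaled TPM, and Il1a was above 0 in 3 livers and 8 tumors, with at most 1.18. Both were too low to be tested. Among 21 cytokine, receptor and regulator genes tested, 2 rose and 3 fell, where 10.3% of all genes tested rose and 8.69% fell. Osmr, a receptor chain for oncostatin M, rose (1.09, adjusted p = 0.00164, limma), as did Nfkb1 (0.53, adjusted p = 0.0113). Il1r1 (-1.29, adjusted p = 0.0124), Il6ra (-0.96, adjusted p = 0.0426) and Nfkbia, an inhibitor of NF-kB, fell (-0.77, adjusted p = 0.00127, every tumor below every liver). Stat3 had a log2 fold change of -0.01, Cebpb -0.38, Cebpd -0.09 and Socs3 -0.33, none of which passed. Socs3 was highest in liver 1 among livers (7.88 scaled TPM) and in tumor 10 among tumors (8.84).

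Some markers of other cell types also differed between the groups. Of 5 Kupffer cell markers, 3 were tested and 1 fell, Clec4f (-1.45, adjusted p = 0.0397), and the summed level was 33.0 to 94.7 in livers and 2.61 to 63.7 in tumors. Of 6 biliary markers, 3 were tested and 2 rose, Spp1 (4.48, adjusted p = 3.77e-07) and Cldn7, while Krt19 stayed below 1 scaled TPM in every sample. Of 7 fibroblast markers 3 rose and 1 fell, and of 5 endothelial markers 2 rose. For comparison, 10.3% of all genes tested rose and 8.69% fell, and these lists are short. Lymphocyte markers were too low to be tested, with a summed level of 0 to 3.77 in livers and 0 to 9.72 in tumors. The part of these cells in the levels of the 10 genes was not tested.

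The genes whose levels were most like those of Saa1, Hp, Lcn2 and Mt1 across the 12 tumors were sought among 7049 genes with a mean of at least 5 scaled TPM. For Saa1 they were Pabpc4 (rho 0.96), Arpc5l (0.92) and Selenok (0.92). For Hp they were Pla1a (0.91), Cr1l (0.85) and Ssbp4 (0.85), and for Lcn2 they included Smad1 (0.92) and N4bp1 (0.90). For Mt1 they were Spryd7 (0.92), Cdkn1a (0.91) and Cab39l (0.90), after Mt2 itself. These are the highest of many values over 12 points, and they carry no test.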

How the data were processed

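Poly-A RNA of 6 livers and 12 tumors was sequenced paired end, aligned by the authors to GRCm38 (mm10), quantified with Salmon and expressed as TPM. What the authors deposited is a score without decimals, which the study calls raw counts, treated here as rounded TPM, and it holds no read depth, so no counting intervals are given. Of 28442 genes, 12874 were at 0 in every sample, and 8 lines with an extra separator were repaired. Samples were grouped by title, and ages were taken from the study's sample table. The labels and that table differ in the mouse number of tumors 3 and 10, which were matched by name.

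Values were scaled by an unweighted trimmed mean of M values (30% of M and 5% of A trimmed). Genes that reached a scaled TPM of 1 in 6 or more samples were fitted with limma 3.58.1 (trend, R 4.3.3) on log2(value + 1), which understates changes of low genes. A Benjamini-Hochberg adjusted p under 0.05 over all genes counted as called. The fit was also run on simulated data with noise independent between genes and samples, and no result here rests on that run. Ratios and relations used permutations in Python 3.11.15 (scipy 1.17.1, numpy 2.4.6, pandas 2.3.3). Plots were made with matplotlib 3.10.9. The replicates are separate mice except tumors 11 and 12. Gene positions and promoters were looked up by Entrez identifier in RefSeq tables of GRCm38.p6.

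The 10 genes, the gene lists and the relations were chosen with earlier results of these data known. Genes named besides the 10 are Met and Siglece, up to 6 called genes per list with the largest fold change, list genes tied directly to 1 of the 10, and the 3 genes most alike to Saa1, Hp, Lcn2 and Mt1, of which 1 is not reported here. Other genes named with values, such as Orm3's place beside Orm1 and the fibrinogens, and Serpina3n as the seventh of its list, were chosen after their values were seen. Alternatives covered scaling, filter, pseudocount, tag, age, a replicate block and an average of tumors 11 and 12, which are from 1 mouse. They also covered sample weights, each tag alone and each sample left out.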

Additional observations from a re-analysis of the deposited data

Results flagged for a closer look

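Of 13 liver results checked, 3 had 1 liver far from the others, by the share of the group's whole range that separates that liver from its nearest neighbor beyond the critical value of Dixon's test. Chance alone gives this in about 5% of groups of normally distributed values. The genes were checked as scaled TPM and not on the log2 scale, where a single high value stands out less. That rate may therefore not hold here. For Lcn2 liver 1 had 243.5 scaled TPM and the next liver 63.3, a share of 0.773. For Orm2 liver 1 had 38.7 and the next liver 10.6, a share of 0.849. For Saa3 liver 5 had 72.3 and the next liver 27.4, a share of 0.654. Liver 1 also had the highest summed level of neutrophil markers among the livers (8.59 scaled TPM, against at most 1.597 in the others) and the highest Socs3, and liver 5 had the highest summed levels of macrophage and monocyte markers (132) and of Kupffer cell markers (94.7). The part of these cells was not tested.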

How the results depend on the processing

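Lcn2 (log2 fold change 3.13 to 4.15) and Saa4 (-1.86 to -1.10) kept their direction under all 33 alternatives and were called in 32 of them. The exception for both was the fit of E20 samples alone (4 livers and 5 tumors). E19 samples alone (2 livers and 7 tumors) called both, and the reason for this difference was not tested. Called genes numbered 2176 with all samples and 1341 without scaling, 1344 in E19 samples alone, 411 in E20 samples alone, 4584 with sample quality weights, 3681 without liver 1 and tumor 2 together, and 1622 to 3209 with 1 sample left out. The replicate numbers do not pair livers with tumors, which came from different mice. The correlation of deviations from the group mean averaged 0.18 in the 6 pairs of the same number, 3 of them over 0.1. In the other 30 pairs it averaged -0.036, and no test of this difference was made. The fit with the number as a replicate block called 1351 genes and 3 of the 10, and the same 12 samples without the block called 1217 genes and 2 of the 10. Of the 10 genes, 2 were called with all samples, 4 with the tag as covariate, 5 with sample quality weights, 5 without liver 1 and tumor 2, 0 in E20 samples alone, and 2 to 4 with 1 sample left out, with 4 without tumor 1 and 4 without tumor 2. The calls gained were among Saa1, Saa3, Mt1 and Mt2.

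Without scaling, 45 genes were called for their spread, against 0. The log2 difference in the ratio of Saa1 to Saa2 became -0.45 and that of Mt1 to Mt2 -0.35 without liver 1 and tumor 2 (exact permutation test, adjusted p = 0.0371 for each). That of Orm1 to Orm2, -0.09, was 0.022 with a pseudocount of 0.1 and between -0.24 and 0.14 with 1 sample left out. Signs turned for Saa2 with sample quality weights (0.056), Hp in E19 samples (-0.059), and Orm2 without liver 1 and tumor 2 (0.032). With 1 sample left out, Orm2 was between -0.56 and 0.035.

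Of the relations, 3 passed with all tumors and 1 in E19 tumors alone. For Saa1 and Saa3, Spearman's rho was -0.10 without the 2 tumors farthest from the median, -0.14 in E19 tumors and between -0.22 and 0.17 with 1 tumor left out. Without those 2 tumors, rho was -0.079 for Saa1 and Hp, -0.067 for Saa3 and Lcn2 and -0.055 for Lcn2 and the neutrophil score. In E19 tumors it was -0.18 for Saa3 and Lcn2, -0.25 for Orm1 and Orm2 and -0.11 for Lcn2 and the neutrophil score. With 1 tumor left out it was between -0.24 and 0.13 for Saa3 and Lcn2 and between -0.027 and 0.47 for Hp and Orm1. Causes were not tested. Rounding to whole TPM limits values near 1, above all in tumor 2.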
